A study of Homo sapiens with 3 samples.

Results

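The nuclear-encoded genes of the respiratory chain were described in OCI-Ly10 cells treated with MZ1. Members were all protein-coding genes of GENCODE release 29 whose symbol begins with NDUFA, NDUFB, NDUFC, NDUFS, NDUFV (complex I), UQCR (complex III), COX4 to COX8 (complex IV) or ATP5 (complex V), together with SDHA, SDHB, SDHC and SDHD (complex II). The rule gives 99 genes, and 91 of them had a row among the 15808 genes of the count table. Of these, 47 belong to complex I by name, 4 to complex II, 9 to complex III, 11 to complex IV and 20 to complex V. The 47 include 8 NDUFAF assembly factors. COX4I2, COX6A2, COX6B2, COX7A1, COX7B2, COX8C, ATP5MGL and NDUFC2-KCTD14 were not analysed here. No measured value entered the rule, although it was chosen with earlier results of these data known.

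OCI-Ly10 is a human lymphoma line, established from a diffuse large B cell lymphoma, and MZ1 is a degrader that brings BET bromodomain proteins to the VHL ubiquitin ligase. The labelled samples form 1 group, OCI-Ly10 cells after 6 h of MZ1, in 3 replicate RNA sequencing libraries. Untreated cells, other lines and later times were not analysed here. Levels and the differences between libraries were therefore described, without any estimate of an effect of the compound. Nothing in the labels tells whether the replicates were separate cultures. The p-values hence speak only of the spread among these libraries, which could be technical.

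The respiratory chain moves electrons through complexes I to IV of the inner mitochondrial membrane, and complexes I, III and IV pump protons that drive ATP synthase, complex V. Complex II, succinate dehydrogenase, is also an enzyme of the citric acid cycle and pumps no protons. All its subunits are encoded in the nucleus, while the other complexes also hold subunits encoded by mitochondrial DNA. NRF-1, factors of the ETS family and YY1 are known to act on promoters of many nuclear genes of the chain.

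The 3 libraries differed in depth. Totals were 5474462, 1441246 and 1314812 counts in replicates 1, 2 and 3. The unit is CPM, counts scaled to the library after TMM normalisation, or CPM per kb of merged exon wherever genes are compared. A gene with no count could still be at up to 0.60, 1.89 or 2.30 CPM in replicates 1, 2 and 3 (3 counts). These limits, and the intervals given for shares, reflect counting error alone, because reads counted without molecular identifiers are not separate molecules. Of 8 B cell markers, 8 were at 1 CPM or more in every library, with summed levels of 2408, 1599 and 2418 CPM. Of 5 T cell markers, 2 had a row and none reached that level (sums 2.80, 0.629 and 2.30 CPM), and the 4 erythroid markers had no row analysed here. Among 4 myeloid markers with a row, 3 reached it, with sums of 62.8, 44.6 and 46.0 CPM. Of 2 fibroblast markers with a row, 1 reached it, with sums of 8.40, 2.51 and 5.37 CPM.

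Promoter sequence was taken from RefSeq (GRCh38.p14), which held windows for 75 of the 91 members. There were 94 windows of 300 bases, from 250 bases before to 50 after a start, and 12 members had more than 1. The stretches printed here lie before the start, overlap no GENCODE exon on either strand and hold a match to a searched motif, which stands in capitals. They come from 6 members with a match in the nearest 100 such bases, and show the ETS core at genes of complexes I, III, IV and V and the NRF-1 core at a pair of complex I genes.
COX5B (chr2:97645940-97646039, plus strand, ETS core): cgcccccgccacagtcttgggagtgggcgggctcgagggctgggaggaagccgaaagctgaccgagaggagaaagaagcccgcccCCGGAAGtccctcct
UQCR11 (chr19:1605491-1605590, minus strand, ETS core on both strands): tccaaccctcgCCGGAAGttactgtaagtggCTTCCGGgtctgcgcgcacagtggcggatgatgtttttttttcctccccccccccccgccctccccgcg
NDUFB7 (chr19:14572067-14572166, minus strand, ETS core): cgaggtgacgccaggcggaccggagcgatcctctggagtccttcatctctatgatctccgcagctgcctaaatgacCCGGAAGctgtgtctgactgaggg
ATP5PD (chr17:75046986-75047085, minus strand, ETS core in reverse): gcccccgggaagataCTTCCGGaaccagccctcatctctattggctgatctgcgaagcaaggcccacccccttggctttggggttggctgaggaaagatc
NDUFB4 (chr3:120596209-120596308, plus strand, NRF-1 core): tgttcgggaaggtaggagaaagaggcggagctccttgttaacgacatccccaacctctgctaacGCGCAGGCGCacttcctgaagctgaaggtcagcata
NDUFA12 (chr12:95003771-95003870, minus strand, NRF-1 core): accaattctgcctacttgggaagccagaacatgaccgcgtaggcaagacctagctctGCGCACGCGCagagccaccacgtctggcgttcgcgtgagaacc

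Motifs were searched on both strands. The ETS core is CCGGAAG and the TATA box TATAAA, the NRF-1 core is the stretch in capitals at NDUFB4 and NDUFA12 with its sixth base free, and the YY1 motif is given by name alone. The NRF-1 core was found in 17 of the 94 windows of respiratory chain genes (18.1%), against 11.8% of 8605 windows of genes of at least 10 CPM and 5.78% of all 35116 windows. The ETS core was found in 25 windows (26.6%), against 20.4% and 10.3%. The YY1 motif was found in 11 windows (11.7%), against 3.18% and 1.20%. The TATA letters were found in 6 windows (6.38%), against 6.06% and 11.5%. The YY1 matches of complexes I, II and III began after the start, between bases 10 and 26. That of ATP5PF, in windows that overlap, lay before it.

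Matches were also counted by complex. The NRF-1 core was found in 0 of 12 windows of complex IV and in 4 of 7 of complex III, and the ETS core in 5 of 12 and 3 of 7. In complex V, 4 of 18 windows held the NRF-1 core and 7 of 18 the ETS core. In complex I, these were 7 and 8 of 54 windows, and in complex II 2 of 3 for each. These windows are few, a match is a description of the letters and not a binding site, and no test was run.

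**Figure D1:**
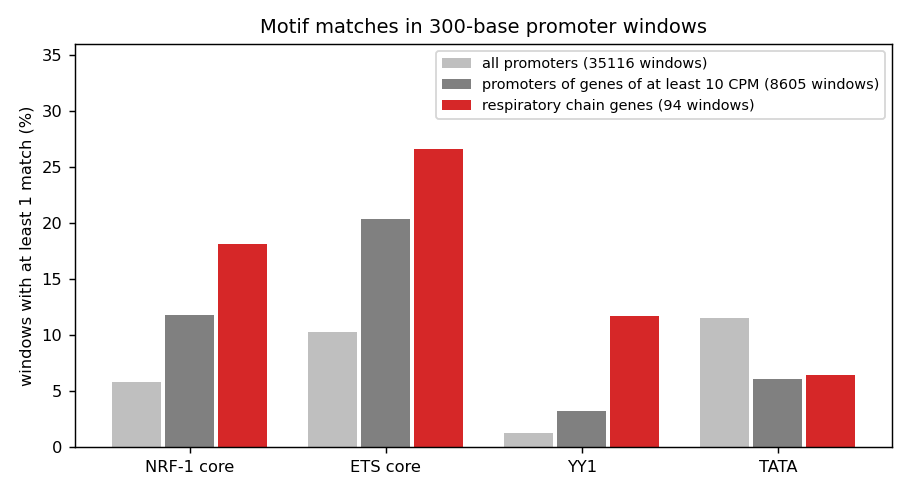
Bars give the share of 300-base RefSeq promoter windows (%) with at least 1 match to each motif, for all 35116 windows, for 8605 windows of genes of at least 10 CPM and for 94 windows of respiratory chain genes. The YY1 bar is at 11.7% for respiratory chain genes and at 3.18% for genes of at least 10 CPM.

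Nearly the whole nuclear-encoded chain was transcribed in the treated cells. Of the 91 members, 84 were at 1 CPM or more in each library, where the share was 68.0% of all genes in the table and 78.0% of its protein-coding genes. A mean of at least 10 CPM was reached by 81 members. The highest was ATP5F1B, the catalytic beta subunit of ATP synthase (ENSG00000110955, GRCh38 chr12:56638175-56646068), with 2265, 721 and 871 CPM in replicates 1, 2 and 3. Per length it stood at 553.6 ± 366.6 CPM per kb (SD, n = 3), followed by UQCRH, the acidic hinge subunit of complex III, at 378.3 ± 168.4 CPM per kb. Their order turned with the library: ATP5F1B was above UQCRH in replicates 1 and 3 and below it in replicate 2, with 310.5 against 558.4 CPM per kb.

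The respiratory chain genes took 1.38% of the counts of replicate 1 (exact Clopper-Pearson 95% interval 1.37 to 1.39). The shares were 0.770% (0.756 to 0.785) in replicate 2 and 0.807% (0.792 to 0.822) in replicate 3. Replicate 1 therefore stood apart from the other libraries, while replicates 2 and 3 were close, though their intervals did not overlap.

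The complexes differed in transcript level per length, with complex IV highest and complex I lowest by mean. The median member of complex IV had 108.6, 22.7 and 44.7 CPM per kb in replicates 1, 2 and 3, and that of complex III 51.1, 28.1 and 29.7. The median member of complex V had 60.6, 16.0 and 21.3 CPM per kb. Every one of these medians lay above the median of genes expressed at 1 CPM or more in every library, which was 4.17, 3.59 and 3.99 CPM per kb. The median of complex II was 26.1, 9.38 and 11.5 CPM per kb, and that of complex I 19.6, 7.12 and 11.0.

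Set against the median expressed gene of the same library, the median member was higher by 3.62 ± 1.03 on the log2 scale (SD, n = 3) in complex IV and by 3.16 ± 0.40 in complex III. The values were 2.81 ± 0.92 in complex V, 1.85 ± 0.69 in complex II and 1.56 ± 0.63 in complex I. Per kb of merged exon, complexes III, IV and V were above complexes I and II in every library. In CPM without a length term, complex II (1.87) stood level with complex V (1.84) and above it in replicates 2 and 3. Complex IV exceeded complex III in 2 of 3 libraries (0.45 ± 0.71 as a log2 ratio), and complex III exceeded complex V in 2 of 3 (0.35 ± 0.54), so neither neighbour differed beyond its spread. Complex II was above complex I by 0.29 ± 0.20, in 3 of 3 libraries, but without the assembly factors complex I had 1.85, as did complex II, and was above it in replicate 3 (1.73 against 1.52). Exact two-sided sign-flip permutation tests over the 10 pairs of complexes gave p = 0.25 or 0.50 (adjusted 0.31 and 0.50), and 0.25 is the smallest p that 3 libraries allow.

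**Figure D2:**
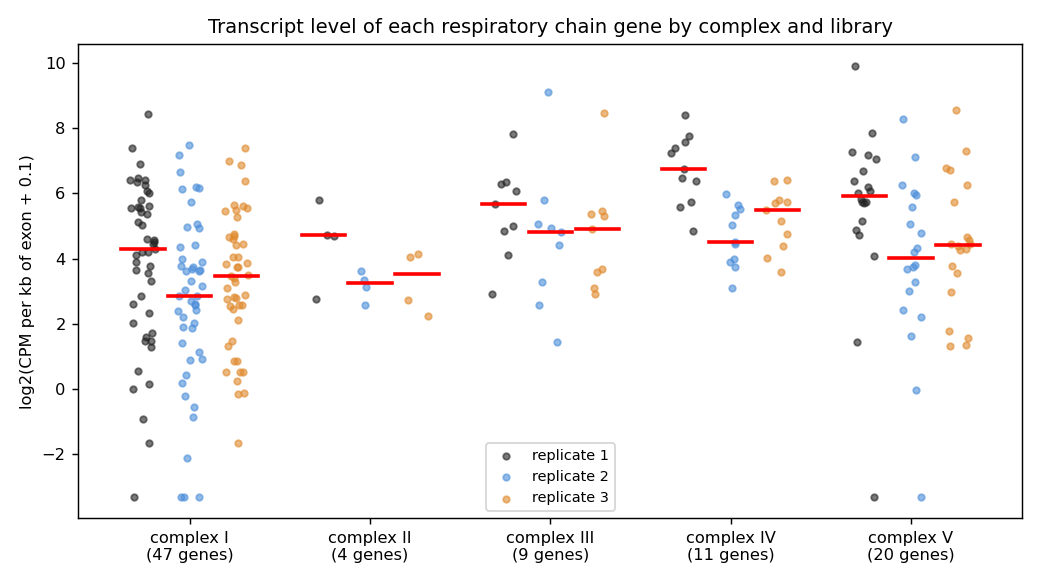
Each point is 1 gene, as log2(CPM per kb of merged exon + 0.1), grouped on the x axis by complex and coloured by library, with the median level of each group as a red line. Replicate 1 has the highest median in each of the 5 complexes, from 19.6 CPM per kb in complex I to 108.6 in complex IV.

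Levels varied between the libraries in 75 of 86 members tested, by a chi-square test that set each gene's counts in the 3 libraries against a common level, with Benjamini-Hochberg adjustment over all genes. The share over all genes tested was 67.2%. Among genes whose counts averaged 50 or more, 70 of 78 members varied (89.7%), against 81.1% of all genes. The share of all genes called thus rose with the count, and the excess of members was smaller there. The test compares libraries, with Poisson error only. Between replicates 2 and 3 alone, 23 of 83 members varied, where the share over all genes was 33.8%. Without replicate 1, then, the share of members that varied (27.7%) was near that of all genes and not above it. Of the 81 members at 10 CPM or more, 67 peaked in replicate 1, a share of 82.7%, where 43.1% of all genes of that level did so. Replicate 2 was highest for 7 members (all genes 28.7%) and replicate 3 for 7 (all genes 28.2%), and replicate 1 was lowest for 11 (all genes 34.0%). In 40 of the 81, replicate 1 was at least 2-fold above both other libraries, against 10.2% of all such genes. None was at least 2-fold below both, against 6.55%. The same shares of all genes apply to the counts by complex given below.

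The median member was lower by 1.42 in replicate 2 than in replicate 1 on the log2(CPM + 0.5) scale, a 2.68-fold difference. It was lower by 1.00 in replicate 3, a 2.01-fold difference, and replicate 3 was above replicate 2 by 0.34, higher for 63 of the 81 members where 56.3% of all genes were. Centred by the length of the principal transcript, this last difference was -0.0012, and with the deposited log2 values it was 0.10. The medians over all genes of at least 10 CPM were -0.14, -0.07 and 0.10. Replicate 2 was the lowest library for 57 of the 81 members, against 40.5% of all genes. The differences of replicates 2 and 3 from replicate 1 ran together over the 81 members (Spearman's rho 0.90, against 0.72 over 7510 genes), but both share replicate 1, and genes are not independent replicates.

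**Figure D3:**
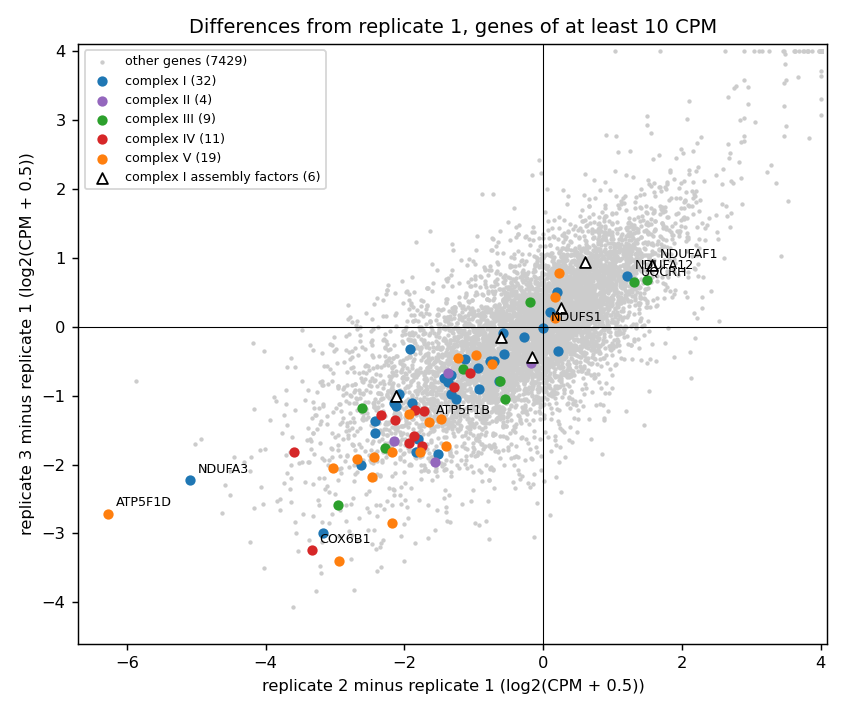
Each point is a gene of at least 10 CPM, with replicate 2 minus replicate 1 on the x axis and replicate 3 minus replicate 1 on the y axis (log2(CPM + 0.5)), respiratory chain genes coloured by complex, and other genes in grey (grey points beyond the axes are drawn at the edge). All 11 genes of complex IV lie below 0 on both axes, while the 6 complex I assembly factors are spread around 0.

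Transcript length moved with the pattern. Over all genes of at least 10 CPM, in 8 bins of the length of the principal transcript (the isoform that GENCODE marks as main), the shortest bin reached 1542 bases. Its 895 genes had median differences of -0.98 (replicate 2 minus replicate 1) and -0.36 (replicate 3 minus replicate 1), and 61.7% of them were highest in replicate 1. That bin held 51 members, with medians of -1.81 and -1.18, and 46 of them were highest in replicate 1. With each gene's difference centred on its length bin, the members' medians were -0.58 and -0.69, and 24 of 81 members (29.6%) stayed at least 2-fold higher in replicate 1, against 7.29% of all genes treated alike. Depth also differed, with replicate 1 the deepest library. With counts thinned to the shallowest library, 72 of 85 members tested varied (84.7%), against 62.3% of all genes. The centring by length bore on length alone. Differences over all genes also moved with GC content. The median of replicate 2 minus replicate 1 was 0.32 in the lowest of 8 bins and -1.37 in the highest. Centred by GC content and length jointly, the members' medians were -0.68 and -0.69. The part of length, GC content and depth in the result was not tested further. Of members without exon overlap on the opposite strand, 39 of 47 were highest in replicate 1 and 23 by at least 2-fold, with medians of -1.37 and -0.97. Of members with such overlap, these were 28 and 17 of 34, with medians of -1.49 and -1.08. Whether the libraries differed in the handling of strand was not tested. In members without a named pseudogene the medians were -1.32 and -0.90.

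**Figure D4:**
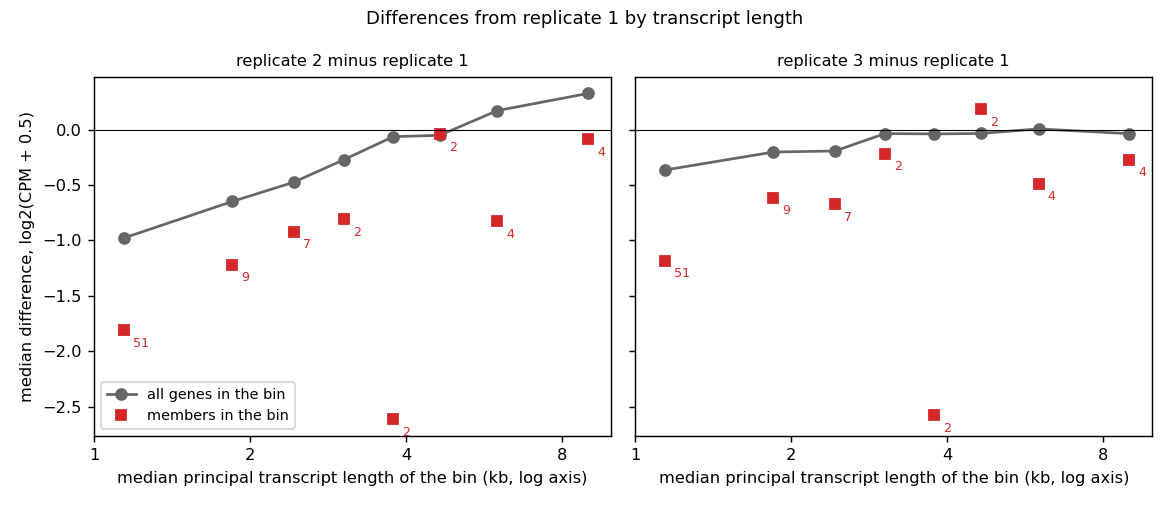
Median difference from replicate 1 (log2(CPM + 0.5)) by bin of principal transcript length (kb, log axis), for all genes (grey line) and for respiratory chain genes (red squares, with the number of genes in the bin). In the shortest bin the median of 51 members lies at -1.81 in replicate 2 and that of all genes at -0.98.

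In complex I, which takes electrons from NADH, the core subunits carry the flavin, the iron-sulphur clusters and the quinone site. Of 6 core subunits at 10 CPM or more, 5 were highest in replicate 1, and 2 by at least 2-fold over both others. NDUFV1, which binds NADH and the flavin, had 247, 64.7 and 196 CPM and the highest core level per length, 33.5 ± 18.6 CPM per kb. Its low library was replicate 2 alone, and replicates 2 and 3 differed (adjusted p = 3.2e-19, chi-square test). NDUFS7, which carries the last iron-sulphur cluster, was the lowest core gene per length with 101, 7 and 13 counts (20.2, 4.40 and 9.97 CPM). NDUFS1, the largest nuclear-encoded core subunit (chr2:206114817-206159603), had 121, 121 and 119 CPM, and its SD of 0.02 on the log2 scale was the smallest of all members at 10 CPM or more (adjusted p = 0.98, chi-square test). NDUFS1 stood level in libraries in which NDUFV1, its neighbour in the NADH module, did not. Exons of NDUFS1, NDUFS7 and NDUFV1 overlap a gene on the opposite strand. Whether the counting used strand is not known, and without strand the reads of both genes cannot be told apart.

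The accessory subunits surround the core, and 22 of 26 at 10 CPM or more were highest in replicate 1, 10 of them by at least 2-fold. NDUFS5, a small subunit on the intermembrane space side, was the highest per length at 219.8 ± 110.7 CPM per kb, with 190, 79.2 and 92.1 CPM. NDUFA1, a membrane subunit encoded on the X chromosome, followed with 129 ± 34.1 CPM per kb (128, 77.9 and 90.5 CPM). For both, replicate 1 lay above the other libraries, which were close together. NDUFA12, which holds the NADH module in place, went the other way with 139, 323 and 231 CPM, lowest in replicate 1 and highest in replicate 2. NDUFA3, a membrane arm subunit (chr19:54102728-54109257), had 80.6, 1.89 and 16.9 CPM, from 403, 3 and 22 counts, and the ratio of replicate 1 to replicate 2 was 42.7, on only 3 counts in replicate 2. NDUFA5 and NDUFA10 were level, with 58.6, 62.9 and 68.3 CPM and with 140, 115 and 127 CPM, and neither passed the test (adjusted p of the chi-square test 0.48 and 0.068). NDUFB4 and NDUFB7, whose promoter stretches are printed above, had 161, 25.8 and 39.9 CPM and 18.4, 1.89 and 7.67 CPM. Both were highest in replicate 1, while NDUFA12, printed beside them and with an NRF-1 core like NDUFB4, was lowest there.

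Some accessory genes were at or near 0. NDUFA4 had 0, 0 and 1 counts, below the limit that 3 counts set in every library. Its protein is now assigned to complex IV, and its isoform gene NDUFA4L2 had 3, 0 and 3 counts, so no ratio of that pair is given. NDUFA7 had 3, 1 and 2 counts, and its exons overlap those of RPS28 on the opposite strand (644, 26.4 and 131 CPM) and of another gene on the same strand. NDUFA13 had 12, 0 and 6 counts and NDUFA11 57, 1 and 5, and these 3 genes were picked out after their values were seen. Exons of NDUFA13 and NDUFA11 also overlap other genes on the same strand, and those of NDUFA11 a gene on the opposite strand. These low values sit in libraries in which 27 of 32 accessory genes were at 1 CPM or more everywhere. NDUFA4 has no exon overlap and 1 named pseudogene. The part of overlaps and copies in these low counts was not tested.

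The NDUFAF assembly factors help to build complex I and are absent from the finished enzyme. Of 6 at 10 CPM or more, 3 were highest in replicate 1 (all genes 43.1%) and 3 were lowest there (all genes 34.0%). Their median differences from replicate 1 were 0.05 in both other libraries. Of the 8 tested, 3 varied (all genes 67.2%). NDUFAF1, a chaperone of membrane arm assembly, was the highest per length at 47.0 ± 24.0 CPM per kb, and its 43.0, 129 and 80.5 CPM followed the order of NDUFA12, with replicate 1 lowest. NDUFAF2, a paralog of NDUFA12, and NDUFAF3 had 23.2, 20.7 and 16.9 CPM and 30.0, 19.5 and 26.8 CPM, and did not pass the test (adjusted p of the chi-square test 0.42 and 0.12). NDUFAF7, a methyltransferase, had 17.8, 21.4 and 21.5 CPM (adjusted p 0.58, chi-square test). NDUFAF6 was the lowest at 1.36 ± 0.39 CPM per kb, with 6.40, 11.3 and 8.44 CPM. At 10 CPM or more, the median principal transcript was 1736.5 bases for the assembly factors, 924 for the accessory and 1540.5 for the core subunits. The difference between the assembly factors and the subunits, and the part of length in it, was not tested.

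In complex II, all 4 genes varied and all were highest in replicate 1. SDHA, the flavoprotein that oxidises succinate, had 221, 84.8 and 138 CPM (17.6 ± 8.15 CPM per kb). SDHB, the iron-sulphur subunit, had 136, 30.2 and 43.0 CPM and the highest level per length of the complex, 28.3 ± 23.5 CPM per kb. For both, replicate 1 lay above the other libraries, by more than 2-fold over each for SDHB. The membrane anchors were lower per length. SDHD had 73.4, 24.5 and 18.4 CPM (13.7 ± 10.6 CPM per kb), with replicate 1 far above the others. SDHC had 94.0, 83.0 and 65.2 CPM (5.70 ± 1.02 CPM per kb, adjusted p = 0.011, chi-square test) and was the most even gene of the complex. Exons of SDHC and SDHD overlap genes on the opposite strand.

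In complex III, cytochrome bc1, all 9 UQCR genes varied. Of these, 6 were highest in replicate 1 and 3 were so by at least 2-fold over both others. CYC1, for cytochrome c1 of the same complex, has a symbol outside the rule and is given further below. UQCRH (chr1:46303631-46316776) had 317, 786 and 495 CPM, so it was lowest in replicate 1 and highest in replicate 2. Its copy without introns, UQCRHL, had 16.2, 46.5 and 26.1 CPM, in the same order. Per kb, UQCRH was above UQCRHL by 4.81 ± 0.10 on the log2 scale in 3 of 3 libraries (exact sign-flip permutation p = 0.25, the smallest possible, adjusted 0.25 over 3 pairs), and by 6.03 with the length of the principal transcript. The near-constant ratio holds for genes of near-identical coding sequence, and the sources used here do not give how shared reads were counted. UQCRQ had 120, 82.3 and 57.5 CPM and 58.9 ± 21.4 CPM per kb. For UQCRQ replicate 3 was the lowest library, whereas UQCRC1, a core protein, was lowest in replicate 2. UQCRC1 had 219, 98.0 and 143 CPM and 47.3 ± 18.9 CPM per kb. UQCR11 was the lowest of the complex per length at 9.14 ± 7.47 CPM per kb, with 37.2, 5.66 and 16.1 CPM, and both copies of the ETS core printed above lie before its start.

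Complex IV, cytochrome c oxidase, had the most uniform direction. All 11 genes varied, and all 11 were highest in replicate 1 and lowest in replicate 2. At least 2-fold higher in replicate 1 than in both others were 9. Between replicates 2 and 3 alone, 4 of the 11 varied (all genes 33.8%). For genes as close there as COX7B, at 47.8 and 48.3 CPM, which library is lowest can turn on the normalisation. COX6B1, which faces the intermembrane space (chr19:35648223-35658861), was the highest per length, 135.0 ± 174.8 CPM per kb, with 315, 30.8 and 33.0 CPM. Its mean rested on replicate 1, which held 1577 counts against 49 and 43. COX7C, a small membrane subunit, had 436, 99.3 and 170 CPM (118 ± 89.1 CPM per kb), and COX7A2, the isoform found in most tissues, had 294, 121 and 160 CPM (99.7 ± 47.2 CPM per kb). Replicate 3 lay between the others for both. COX4I1, the largest nuclear subunit, had 520, 103 and 214 CPM. COX8A, the smallest, had 96.4, 7.54 and 26.9 CPM. In COX8A and COX4I1, replicates 2 and 3 also differed from each other, which COX6B1 did not show. COX7B had 162, 47.8 and 48.3 CPM, and COX5B, printed above with its ETS core, 127, 32.7 and 39.1 CPM. COX6A1 was the lowest of the complex at 16.3 ± 10.7 CPM per kb, with 38.4, 11.3 and 16.1 CPM. The tissue-restricted partners of these isoforms were not analysed here.

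In the head and stalk of complex V, ATP synthase, 7 of 9 genes were highest in replicate 1, each by at least 2-fold over both others. ATP5F1B held 11327, 1147 and 1135 counts, and its lead in replicate 1 was 1.65 and 1.38 on the log2 scale. ATP5F1A, the alpha subunit that forms the head with it, had 1463, 527 and 581 CPM (78.6 ± 48.2 CPM per kb). The exceptions were ATP5PB and ATP5PD of the peripheral stalk, which holds the head in place. ATP5PB had 218, 256 and 374 CPM (83.6 ± 24.1 CPM per kb) and ATP5PD 183, 207 and 248 CPM, and both were lowest in replicate 1. ATP5PF and ATP5PO of the same stalk had 149, 55.9 and 44.5 CPM and 98.0, 17.6 and 26.1 CPM, highest in replicate 1 like the head genes.

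The small subunits of the central stalk were among the most variable members. ATP5F1D, the delta subunit (chr19:1241746-1244826), had 190, 0 and 7 counts (38.0, 0 and 5.37 CPM) and an SD of log2 values of 3.14, the largest of the 81 members where its 0 is taken as 0 CPM. With replicate 2 at the limit of 3 counts the SD was 2.05, below that of NDUFA3 at 2.55. Against the limit of 3 counts in replicate 2, replicate 1 was at least 20.1-fold higher. ATP5F1E, the epsilon subunit, had 183, 23.3 and 16.9 CPM, from 914, 37 and 22 counts. Neither ATP5F1D nor COX6B1 has an exon overlap on the opposite strand, while ATP5F1E and NDUFA3 do.

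In the membrane part of complex V, all 8 genes were highest in replicate 1, 6 of them by at least 2-fold, and the median differences from it were -2.06 and -1.87. ATP5ME, subunit e at the dimer interface, was the highest per length, with 219, 131 and 150 CPM (177 ± 49.2 CPM per kb). ATP5MD had 142, 30.8 and 19.2 CPM (69.1 ± 73.1 CPM per kb). The 3 genes for subunit c, which forms the rotor ring, encode the same mature protein. ATP5MC2 had 577, 247 and 420.4 CPM, ATP5MC3 461, 134 and 130 CPM and ATP5MC1 135, 20.7 and 35.3 CPM, each highest in replicate 1. Per kb of merged exon, ATP5MC2 was above ATP5MC1 by 2.45 ± 0.84 on the log2 scale and ATP5MC3 above it by 0.72 ± 0.49, in 3 of 3 libraries (exact sign-flip permutation p = 0.25, adjusted 0.25). With the length of the principal transcript the former was 1.40 and the latter turned to -1.06, so the order of ATP5MC3 and ATP5MC1 depends on which length is used.

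The other ATP5 genes are an inhibitor, a coupling factor and a read-through. ATP5IF1, which blocks the reverse reaction of ATP synthase, had 58.2, 29.5 and 43.7 CPM (19.7 ± 6.44 CPM per kb). ATP5S had 29.4, 33.3 and 32.2 CPM (adjusted p = 0.73, chi-square test) and was among the most even members. ATP5MF-PTCD1 joins exons of ATP5MF to those of the next gene, and had 0, 4 and 9 counts.

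**Figure D5:**
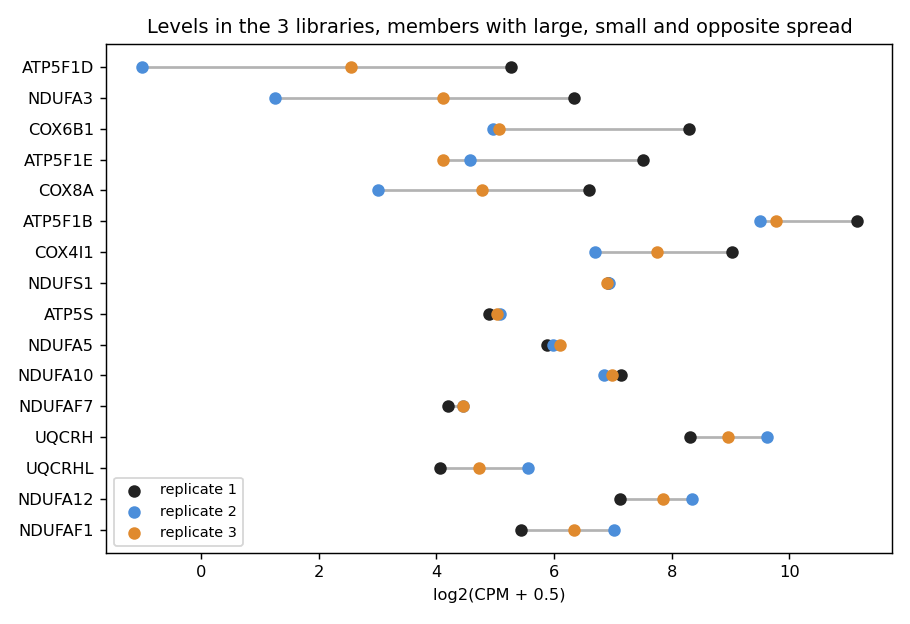
Levels as log2(CPM + 0.5) on the x axis for 16 members, with 1 point per library joined by a grey line. ATP5F1D to COX4I1 have replicate 1 at the right end, NDUFS1 to NDUFAF7 are nearly level, and UQCRH, UQCRHL, NDUFA12 and NDUFAF1 have replicate 1 at the left end.

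ETS cores and the direction of difference were set side by side as a description. Of 40 windows of members at least 2-fold higher in replicate 1, 16 held the ETS core, and of 45 windows of the other members at 10 CPM or more, 6 did. The NRF-1 core was found in 9 of the 40 and 7 of the 45. Over all windows of genes of at least 10 CPM, the shares were 20.4% for the ETS core and 11.8% for the NRF-1 core. The shares among all genes at least 2-fold higher in replicate 1 were not counted. Some members have several windows, and no test was run.

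Other genes of the pathway were counted in the same way. Cytochrome c and cytochrome c1, CYCS and CYC1, were both highest in replicate 1, with 371, 231 and 265 CPM and with 176, 23.3 and 88.2 CPM. Among 35 assembly factors of complexes II to V, 22 of 33 tested varied (all genes 67.2%), 12 of 24 at 10 CPM or more were highest in replicate 1 (all genes 43.1%), and their median differences from it were -0.25 and -0.04. Of the 13 subunits encoded by mitochondrial DNA, 13 varied (all genes 67.2%, or 81.1% where counts averaged 50 or more). Of them, 5 were highest in replicate 1 (all genes 43.1%), with medians of -0.16 and 0.06. Single differences ran from -1.61 to 3.98 in replicate 2 and from -1.40 to 4.11 in replicate 3. MT-ND6, the only one of the 13 subunits encoded on the light strand, had 280, 4433 and 4828 CPM and was named after its values were seen. Of the 12 regulators of respiratory genes in the table, 5 varied (all genes 67.2%). At 10 CPM or more, 4 of 10 regulators were highest in replicate 1, close to the share of all genes (43.1%). TFAM, which packages mitochondrial DNA, had 228, 200.5 and 226 CPM, and NRF1 16.2, 13.8 and 19.9 CPM.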

How the data were processed

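RNA sequencing gave 1 table of raw counts per gene, deposited by the authors, and 1 table of log2 values, deposited by the authors and used here only as an alternative. STAR, edgeR and hg38 were used, per the submitters' processing notes. Not given in the sources used here are the tool that counted reads, whether it used strand, and the authors' annotation. Members and lists were chosen with earlier results of these data known. IDs were matched without their version to GENCODE release 29 (15668 of 15808 genes), which gave symbols, positions and merged exon lengths. The 140 unmatched IDs held 0.0315% to 0.0972% of a library's counts and stayed in the totals. Counts were scaled by TMM (0.914, 1.10 and 0.991 in replicates 1, 2 and 3) with edgeR 4.0.16 in R 4.3.3. Differences were taken on the log2(CPM + 0.5) scale, on which those of low genes come out too small. The chi-square test took genes whose counts averaged 10 or more, with Poisson error, TMM-scaled libraries and an adjusted threshold of 0.05. Bins for centring were made from genes of at least 10 CPM. Promoters of members were matched by symbol or a unique synonym. Those of the comparison genes of at least 10 CPM were matched by symbol alone.

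The genes named are all SDH genes, the 3 highest and the lowest per kb of each class of subunit, all genes of isoform pairs, and the 5 most and 5 least variable members of at least 10 CPM, 46 genes in all, of which 1 is not reported here. The class of other ATP5 genes was added after the files were seen. COX5B, NDUFB4, NDUFB7 and ATP5PD (printed promoters), NDUFA7, NDUFA11, NDUFA13, ATP5PF, ATP5PO and the pathway genes fall outside this rule. Alternatives were DESeq2 1.42.0 size factors, the deposited log2 values, column totals, counts thinned to the shallowest library, other filters and pseudocounts, and other lengths. Others were centring by GC content or length, leaving out genes with overlaps or pseudogenes, and leaving out each library. Opposite-strand exon overlap was found with pyranges 0.1.4 for 39 of the 91 members, and 47 have a named pseudogene.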

Additional observations from a re-analysis of the deposited data

How the results depend on the processing

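Of 143 alternative values over 16 results, 118 stayed within the limit set for their result, 24 moved further and 1 reversed. The limit was a fold change for counts and percentages of members, and a fixed log2 step for median differences. For the share of counts and the levels of complexes it was the SD over libraries. Ratios of paralogs only had to keep their sign, so ratios that changed in size are among the 118. Some of the 118 could not change at all. Size factors cancel in levels set against the median gene of the same library, and some choices of members left a complex as it was. No paired analysis was possible because the labels give only 1 group. The share of members that varied was 87.2%, and leaving out 1 library gave 27.7% (without replicate 1) to 84.9%, so that count rests on replicate 1. The median difference of replicate 2 from replicate 1 (-1.42) was -1.16 with column totals, -1.22 centred by GC content, -1.03 by exon length, -0.58 by principal transcript length and -0.68 by GC content and that length jointly. The difference of replicate 3 from replicate 1 was, in the same order, -0.89, -0.89, -0.83, -0.69 and -0.69, and it was -1.17 with the deposited log2 values and -0.90 without members with a named pseudogene. The difference of replicate 3 from replicate 2 (0.34) was 0.19, 0.19, 0.059, -0.0012 and 0.0080, and 0.10 with the deposited log2 values, so it was lost on centring by transcript length. The share of members at least 2-fold higher in replicate 1 (49.4%) was 29.6% centred by principal transcript length. Levels of the complexes over the median expressed gene without a length term were 0.57 (I), 1.87 (II), 2.10 (III), 2.51 (IV) and 1.84 (V), so complexes II and V changed places. The log2 ratio of ATP5MC3 to ATP5MC1 (0.72) reversed to -1.06 with principal transcript length. By the mean over libraries, complex I was lowest and complex IV highest in all settings run, though complexes I and II were both at 1.85 with subunits only, and single libraries departed from this. Members highest in replicate 1 numbered 57 of 81 centred by principal transcript length, against 38.5% of all genes. Depth limits genes under 3 counts in replicates 2 and 3.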
